A study of Mus musculus with 12 samples.

Results

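Described here are 34 genes used as markers of monocytes and macrophages, taken by symbol from the 54109 genes counted in 12 mouse libraries. They were set in 4 groups by role. The 6 monocyte genes were Ly6c2, Plac8, Cd14, Itgam, Fcgr4 and Clec4n. The 15 mature macrophage genes were Adgre1, Csf1r, Cx3cr1, Fcgr1, C1qa, C1qb, C1qc, Cd163, Mrc1, Ms4a7, Maf, Mertk, Folr2, Timd4 and Vsig4. The 7 lipid, repair and scavenger genes were Trem2, Apoe, Gpnmb, Spp1, Arg1, Msr1 and Marco, and the 6 genes shared by most myeloid cells were Cd68, Lyz2, Fcgr3, Tyrobp, Fcer1g and Ctss.

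All mice received dextran sulfate sodium (DSS), a polymer that injures the colonic epithelium and brings on acute colitis, so no library comes from an untreated gut. The genotypes were wild type (WT) and a knockout (KO) of Gpr15l, whose product is secreted and binds the receptor Gpr15. RNA was taken from full colon or from LPMC, short for lamina propria mononuclear cells. With 3 libraries for each genotype in each tissue there were 4 groups. The labels used here give no age, sex, strain, day of DSS or method of deletion. Nor do they state that replicates were separate mice, and the p-values therefore rest on a spread between libraries that could be partly technical.

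As background, the macrophages of the adult gut are renewed from blood monocytes. Monocytes that enter the lamina propria carry much Ly6c2 and little of the mature markers, and as they settle they lose Ly6c2 and gain F4/80 (Adgre1), the phagocytic receptor Mertk, the mannose receptor Mrc1, the scavenger receptor Cd163 and the complement C1q chains. During colitis this transition is incomplete and monocytes and their early offspring build up. Macrophages of damaged tissue also take on genes of lipid handling and repair, among them Trem2, Gpnmb, Spp1 and Apoe. The transcription factor PU.1, the product of Spi1, binds the promoters of many of these genes.

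The starts of the genes on which the results turn are printed here, as 300 bases from 250 before to 50 after the transcription start, read 5′ to 3′ along the gene. These are RefSeq windows on GRCm38.p6 for C1qb (chr4:136886151-136886450, minus strand), C1qc (chr4:136892865-136893164, minus strand), Ly6c2 (chr15:75111922-75112221, minus strand), Plac8 (chr5:100572156-100572455, minus strand), Spp1 (chr5:104434861-104435160, plus strand) and Marco (chr1:120504975-120505274, minus strand). C1qb and C1qc are shown because their levels ran together from library to library, and the other 4 because they were among the genes called between LPMC and colon. Capitals mark GAGGAA, the core of the PU.1 site, or its reverse complement TTCCTC, and TGCTGA, a core of the Maf recognition element.
C1qb: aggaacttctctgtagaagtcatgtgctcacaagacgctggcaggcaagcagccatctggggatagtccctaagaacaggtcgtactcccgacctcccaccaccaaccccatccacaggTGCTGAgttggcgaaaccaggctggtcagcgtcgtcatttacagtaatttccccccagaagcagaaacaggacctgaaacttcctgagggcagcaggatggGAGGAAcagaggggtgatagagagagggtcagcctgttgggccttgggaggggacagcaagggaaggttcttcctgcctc
C1qc: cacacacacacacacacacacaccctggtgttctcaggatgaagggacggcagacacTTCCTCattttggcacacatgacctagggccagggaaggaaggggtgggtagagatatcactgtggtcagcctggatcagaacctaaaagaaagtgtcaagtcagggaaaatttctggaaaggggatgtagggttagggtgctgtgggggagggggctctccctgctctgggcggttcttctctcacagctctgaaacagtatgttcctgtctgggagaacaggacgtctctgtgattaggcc
Ly6c2: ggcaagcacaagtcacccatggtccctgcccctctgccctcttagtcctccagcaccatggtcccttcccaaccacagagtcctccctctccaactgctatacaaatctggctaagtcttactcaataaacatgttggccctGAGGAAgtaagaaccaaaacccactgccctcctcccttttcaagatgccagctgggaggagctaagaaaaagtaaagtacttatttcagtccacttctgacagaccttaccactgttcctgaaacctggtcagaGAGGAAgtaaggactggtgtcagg
Plac8: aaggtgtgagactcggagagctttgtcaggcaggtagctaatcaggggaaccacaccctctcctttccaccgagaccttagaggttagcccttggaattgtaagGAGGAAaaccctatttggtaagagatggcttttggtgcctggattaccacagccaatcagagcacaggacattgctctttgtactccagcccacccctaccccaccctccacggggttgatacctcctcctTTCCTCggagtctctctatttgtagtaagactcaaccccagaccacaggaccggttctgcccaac
Spp1: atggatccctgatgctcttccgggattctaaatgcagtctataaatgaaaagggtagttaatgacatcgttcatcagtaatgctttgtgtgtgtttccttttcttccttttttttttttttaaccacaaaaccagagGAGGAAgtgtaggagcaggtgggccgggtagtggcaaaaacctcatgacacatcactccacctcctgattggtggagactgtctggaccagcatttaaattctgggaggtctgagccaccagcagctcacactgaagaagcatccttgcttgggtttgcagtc
Marco: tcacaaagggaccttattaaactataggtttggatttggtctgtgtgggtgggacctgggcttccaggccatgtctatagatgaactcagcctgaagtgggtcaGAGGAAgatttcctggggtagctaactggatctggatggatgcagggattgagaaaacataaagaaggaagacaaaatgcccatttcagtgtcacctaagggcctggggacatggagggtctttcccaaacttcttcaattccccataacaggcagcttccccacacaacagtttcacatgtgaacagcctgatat
Each of the 6 windows printed holds the PU.1 core, and C1qb also holds the Maf core. This rests in part on which windows were printed. Folr2, also called between LPMC and colon, had no window with the PU.1 core and is not shown. Ly6c2, Plac8 and Spp1 have 2 windows each, of which 1 is shown. Windows were found for 25 of the 34 genes, 33 windows in all, some genes having more than 1 start. Searched on both strands, GAGGAA lay in 60.6% of these windows (20 of 33, from 17 genes) and in 28.3% of all 32851 windows of this length. TGCTGA lay in 27.3% (9 of 33) against 19.5%, and the AP-1 site TGANTCA in 15.2% (5 of 33) against 7.81%. TGCTGA and TGANTCA can share their TGA letters. A match describes the letters of the window and says nothing of binding in these samples.

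The libraries held 45.4 to 140.7 M counts (M for 1e6 reads). Levels are given as CPM, counts per 1e6 reads after TMM scaling, and differences as log2 fold changes with standard errors from edgeR's quasi-likelihood test, called where the p-value adjusted over all genes by the Benjamini-Hochberg method was under 0.05. The deleted gene, listed as 2610528A11Rik, was near 0 in every KO library and abundant in every WT library, its log2 fold change being -11.82 (SE 0.58) in colon, and in LPMC -12.16 (SE 0.46). LPMC libraries were not free of epithelium: 10 epithelial markers summed to 14246 to 24446 CPM there, against 16582 to 35987 CPM in colon. The 10 T cell markers summed to 72.7 to 282 CPM in LPMC and 11 to 60.8 CPM in colon, and 10 genes induced by tissue dissociation to 11763 to 18741 CPM in LPMC and 545 to 1422 CPM in colon. In bulk RNA, fewer cells of a type and less RNA per cell cannot be told apart.

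Before the comparisons, libraries that stand apart need naming. Colon KO replicate 2 was the lowest colon library for 24 of the 34 genes, and LPMC KO replicate 2 the lowest LPMC library for 16. For 11 genes (Adgre1, Cd14, Cd68, Clec4n, Csf1r, Fcer1g, Ly6c2, Msr1, Timd4, Trem2 and Tyrobp) the KO libraries numbered 2 were lowest in both tissues. LPMC KO replicates 1 and 3 held the highest LPMC value for 15 and 13 genes. The mean log2 CPM over all 34 genes was 3.31, 3.29 and 2.48 in colon WT replicates 1 to 3, 3.33, 1.59 and 3.60 in colon KO, 2.99, 2.43 and 2.33 in LPMC WT, and 3.72, 2.11 and 3.72 in LPMC KO. Each KO group therefore held 2 libraries at or above the highest WT library and 1 below the lowest. Colon KO replicate 2 also had the highest epithelial sum of all libraries (35987 CPM) and the lowest neutrophil sum in colon (266 CPM, 16 markers), and LPMC KO replicate 2 the highest epithelial sum in LPMC (24446 CPM) and the lowest neutrophil sum there (104 CPM). The part of these other cell types in the results was not tested. Values without these libraries follow beside the comparisons of genotypes.

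**Figure D1:**
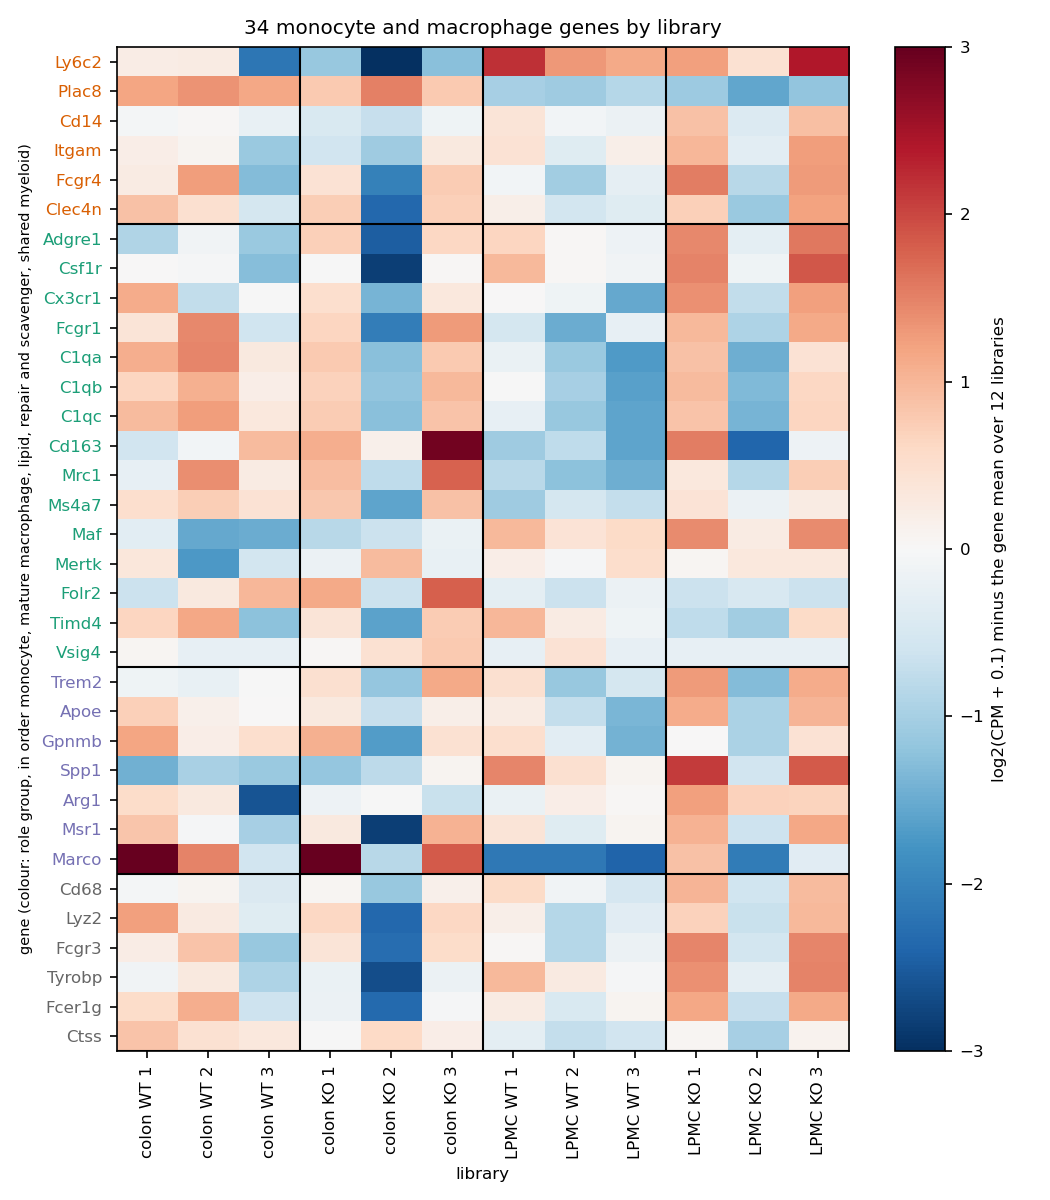
Level of each of the 34 genes in each library, as log2(CPM + 0.1) minus the gene's mean over the 12 libraries; red is above and blue below that mean, colours end at 3 units either way, and gene names are coloured by role group. Colon KO replicate 2 is blue for most genes, with Plac8 and Mertk among the exceptions, and LPMC KO replicates 1 and 3 are red for most.

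Per length, the table was led by genes that are not particular to macrophages. Plac8, a cysteine-rich protein of myeloid cells that other cell types also make, stood at 1460 CPM per kb of exon in colon WT and 319 in LPMC WT. Ctss, a lysosomal protease that trims the invariant chain for antigen presentation, followed with 253 and 120. The next in colon WT were Lyz2 (119), Cd14 (90), Apoe (82.1) and C1qa (47.6), all in CPM per kb. In LPMC WT they were Cd14 (99.6), Lyz2 (68.1), and Apoe and Tyrobp (47.4 each). The neighbours Lyz2 and Cd14 overlapped between libraries in both tissues, so their order there is not settled. At the other end, Vsig4, Folr2 and Cd163, genes of long-lived tissue macrophages, stood at 0.00542, 0.0664 and 0.122 CPM per kb in colon WT.

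Among the monocyte genes, Ly6c2, which encodes the surface antigen by which fresh monocytes are sorted, stood at 10.5, 10.6 and 1.91 CPM in colon WT replicates 1 to 3 and at 4.02, 0.26 and 3.67 CPM in colon KO. In LPMC it stood at 41.4, 22.3 and 19.7 CPM in WT and 21.2, 12.4 and 47.8 CPM in KO. Every LPMC library was above every colon library, and the genotypes overlapped in both tissues. Reads of Ly6c2 can be hard to tell from its near copy Ly6c1, an endothelial and T cell gene that ran the other way (155 to 1168 CPM in colon and 34 to 107 CPM in LPMC), so the Ly6c2 values are uncertain.

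Plac8 stood at 2242, 2513 and 2218 CPM in colon WT, 1721, 2828 and 1720.1 CPM in colon KO, 495, 477 and 551 CPM in LPMC WT, and 466, 337 and 438 CPM in LPMC KO. It had the reverse pattern of Ly6c2, every colon library being above every LPMC library. It was also highest in colon KO replicate 2, the library with most epithelial RNA and the lowest for most other genes here. Cd14, the co-receptor for bacterial lipopolysaccharide, varied little in colon, with 159, 168 and 140.1 CPM in WT and 119, 102 and 151 CPM in KO. In LPMC it stood at 216, 156 and 145 CPM in WT and 301, 124 and 309 CPM in KO, so that KO replicate 2 was the lowest and the other KO libraries the highest.

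Itgam encodes the integrin CD11b, Fcgr4 an activating IgG receptor and Clec4n the lectin Dectin-2, and all of them are also made by neutrophils. Fcgr4 stood at 10.3, 21.0 and 3.44 CPM in colon WT and 11.7, 2.06 and 14.8 CPM in colon KO. In LPMC it stood at 8.16, 4.18 and 7.20 CPM in WT and 25.4, 4.86 and 21.2 CPM in KO. The KO libraries of LPMC thus split, with replicates 1 and 3 above all WT libraries and replicate 2 among them. Itgam ranged from 3.21 to 8.69 CPM in colon and 5.51 to 17.2 CPM in LPMC, and Clec4n from 0.77 to 7.99 CPM and 1.94 to 10.1 CPM.

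The mature macrophage genes contain the chains of C1q, the recognition subunit of the classical complement pathway, which gut macrophages make in quantity and whose 3 genes (C1qa, C1qb and C1qc) lie side by side on chromosome 4. C1qa stood at 51.7, 66.9 and 29.9 CPM in colon WT, 41.8, 10.1 and 42.0 CPM in colon KO, 21.1, 11.1 and 7.42 CPM in LPMC WT, and 44.6, 8.68 and 32.6 CPM in LPMC KO. C1qb stood at 42.4, 56.2 and 30.9 CPM in colon WT, 43.5, 11.7 and 52.6 CPM in colon KO, 26.8, 13.4 and 8.66 CPM in LPMC WT, and 51.8, 10.7 and 41.1 CPM in LPMC KO. C1qc stood at 39.6, 48.8 and 25.5 CPM in colon WT, 34.6, 8.55 and 37.1 CPM in colon KO, 17.2, 9.26 and 6.79 CPM in LPMC WT, and 36.9, 7.73 and 32.3 CPM in LPMC KO. The 3 chains rose and fell together from library to library, and genotypes overlapped in each tissue. Over the 12 libraries, the ratio of CPM of C1qa to C1qb stayed within 0.789 to 1.22 and that of C1qc to C1qb within 0.644 to 0.934, while C1qb itself ran from 8.66 to 56.2 CPM. These ratios were chosen after the values were seen.

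The receptor gene Csf1r and the regulator gene Maf had higher means in LPMC than in colon, where the C1q chains had lower ones. Csf1r, the receptor for the growth factor Csf1 on which macrophages and their monocyte precursors depend, stood at 38.9, 37.3 and 15.7 CPM in colon WT, 38.4, 5.32 and 39.7 CPM in colon KO, 75.6, 39.2 and 35.7 CPM in LPMC WT, and 108, 34.9 and 139 CPM in LPMC KO. The ratio of C1qb to Csf1r was 1.09 to 2.20 in colon and 0.243 to 0.481 in LPMC, a split with no overlap that was also chosen after the values were seen. Maf, a transcription factor of resident macrophages that T cells also carry, stood at 5.38, 2.25 and 2.32 CPM in colon WT, 3.74, 4.24 and 5.82 CPM in colon KO, 13.3, 8.93 and 10.1 CPM in LPMC WT, and 18.3, 8.01 and 18.0 CPM in LPMC KO. Like Ly6c2, it was higher in every LPMC library than in any colon library.

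Mrc1, the mannose receptor, stood at 4.76, 14.98 and 6.74 CPM in colon WT, 10.9, 3.31 and 19.7 CPM in colon KO, 3.19, 2.36 and 1.99 CPM in LPMC WT, and 7.04, 3.07 and 9.55 CPM in LPMC KO. Ms4a7, a membrane protein of mature macrophages, stood at 4.49, 5.32 and 4.24 CPM in colon WT, 5.51, 0.98 and 5.86 CPM in colon KO, 1.44, 2.14 and 1.87 CPM in LPMC WT, and 4.20, 2.77 and 3.74 CPM in LPMC KO. Ms4a7 was the only mature macrophage gene past the filter on low counts for which every LPMC KO library lay above every LPMC WT library. Cd163, the receptor for haptoglobin-bound haemoglobin, was low and uneven, with 0.34, 0.51 and 1.15 CPM in colon WT, 1.29, 0.62 and 4.71 CPM in colon KO, 0.21, 0.28 and 0.12 CPM in LPMC WT, and 1.78, 0.02 and 0.49 CPM in LPMC KO. Its highest value came from colon KO replicate 3, the deepest library, with 703 counts, and its lowest from LPMC KO replicate 2, with 2 counts.

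Other genes of this group ranged widely with overlapping genotypes. Adgre1, the F4/80 antigen, ran from 0.96 to 9.56 CPM in colon and 4.71 to 17.4 CPM in LPMC. Fcgr1, the high-affinity IgG receptor, ran from 0.90 to 11.4 CPM and from 1.40 to 9.22 CPM, and Cx3cr1, the fractalkine receptor of gut macrophages, from 0.70 to 4.44 CPM and from 0.62 to 5.32 CPM. Mertk, which binds dying cells, ran from 8.20 to 52.7 CPM in colon, with its peak in KO replicate 2, and from 26.7 to 39.8 CPM in LPMC. Timd4, a phosphatidylserine receptor of long-lived macrophages, was at most 1.49 CPM in any library. Folr2, the folate receptor beta, had 0, 4 and 15 counts in colon WT, 23, 0 and 67 in colon KO, 3, 0 and 2 in LPMC WT, and 0, 1 and 0 in LPMC KO. Vsig4, a complement receptor, had 16 counts or fewer in each library and did not pass the filter on low counts in any comparison.

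**Figure D2:**
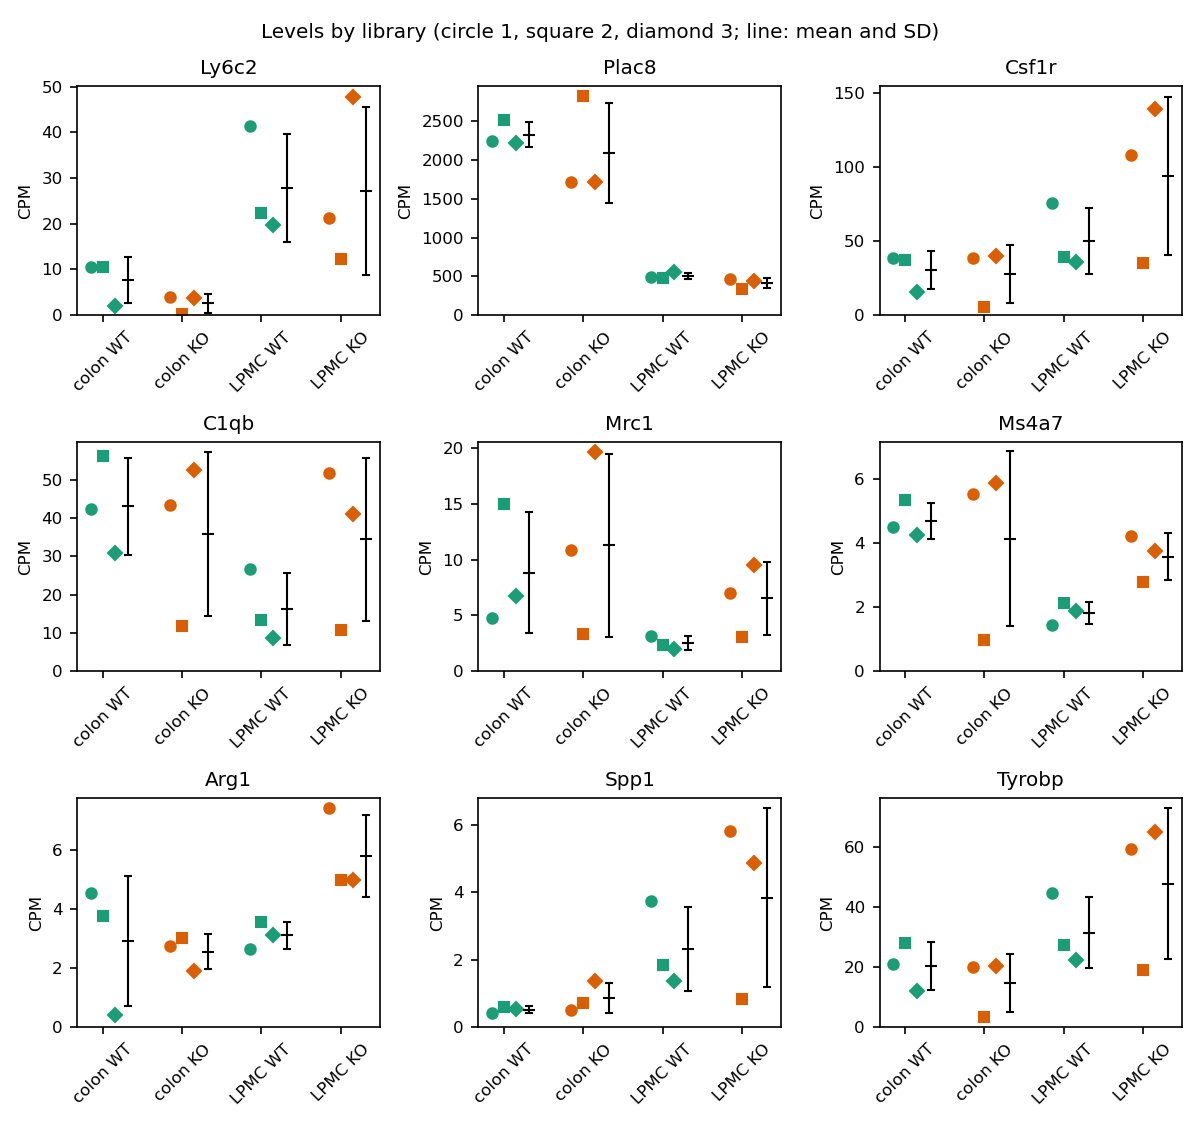
CPM of 9 genes in each library (circle, square and diamond for replicates 1, 2 and 3; WT green, KO orange), with the mean and SD of each group (n = 3) beside the points. Ly6c2 and Plac8 part the tissues in opposite directions. In LPMC the genotypes part for Ms4a7 and Arg1, with KO above WT, and for Plac8, with KO below WT. In most other panels the KO square lies far below the other KO points.

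Of the lipid, repair and scavenger genes, Apoe, a carrier of lipids, stood at 231, 156 and 140.3 CPM in colon WT, 172, 87.2 and 159 CPM in colon KO, 165, 85.0 and 53.9 CPM in LPMC WT, and 302, 72.7 and 282 CPM in LPMC KO. Spp1, which encodes osteopontin, stood at 0.41, 0.60 and 0.55 CPM in colon WT, 0.52, 0.70 and 1.37 CPM in colon KO, 3.73, 1.85 and 1.37 CPM in LPMC WT, and 5.82, 0.83 and 4.86 CPM in LPMC KO. The tissues overlapped only because colon KO replicate 3 reached above LPMC WT replicate 3 and LPMC KO replicate 2. Arg1, the arginase of repair-type macrophages, stood at 4.55, 3.79 and 0.43 CPM in colon WT, 2.75, 3.04 and 1.89 CPM in colon KO, 2.66, 3.57 and 3.14 CPM in LPMC WT, and 7.43, 5.01 and 4.99 CPM in LPMC KO. All LPMC KO libraries were above all LPMC WT libraries for Arg1, and the colon groups overlapped.

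Marco, a scavenger receptor for bacteria, had 390, 60 and 18 counts in colon WT, 430, 12 and 267 in colon KO, 2, 2 and 0 in LPMC WT, and 120, 2 and 24 in LPMC KO. It was all but absent from 4 LPMC libraries and did not pass the filter on low counts in the comparison within LPMC. Trem2, a lipid-sensing receptor that signals through Tyrobp, was low, from 0.49 to 2.78 CPM in colon and 0.44 to 3.08 CPM in LPMC. Gpnmb, a lysosomal membrane protein of lipid-laden macrophages, ran from 2.45 to 18.2 CPM in colon and 2.91 to 11.4 CPM in LPMC, and Msr1, a scavenger receptor for modified lipoproteins, from 0.75 to 12.3 CPM and 3.80 to 13.4 CPM.

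The shared myeloid genes carried the same split of the KO libraries. Tyrobp and Fcer1g are adaptors whose ITAM motif passes on the signals of receptors that have none of their own. Tyrobp stood at 21.2, 28.0 and 12.1 CPM in colon WT, 20.2, 3.56 and 20.5 CPM in colon KO, 44.8, 27.5 and 22.4 CPM in LPMC WT, and 59.4, 19.0 and 65.1 CPM in LPMC KO. Fcer1g stood at 31.1, 45.4 and 13.8 CPM in colon WT, 18.6, 4.14 and 20.7 CPM in colon KO, 25.2, 15.4 and 22.3 CPM in LPMC WT, and 47.3, 13 and 46.7 CPM in LPMC KO. For both adaptors KO replicate 2 was the lowest library of its tissue. Fcgr3, a low-affinity IgG receptor that signals through Fcer1g, stood at 17.7, 27.7 and 6.88 CPM in colon WT, 19.96, 3.04 and 22.3 CPM in colon KO, 15.5, 8.28 and 13.4 CPM in LPMC WT, and 41.8, 10.3 and 41.8 CPM in LPMC KO. Its close relative Fcgr2b, the inhibitory receptor, ran from 6.48 to 43.6 CPM in colon and 13 to 55.0 CPM in LPMC, and reads shared between such relatives are uncertain.

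Lyz2, the lysozyme of myeloid cells, stood at 255, 130.4 and 84.2 CPM in colon WT, 168, 21.2 and 168 CPM in colon KO, 123, 60.1 and 85.5 CPM in LPMC WT, and 175, 68.1 and 215 CPM in LPMC KO. Its near copy Lyz1, the lysozyme of Paneth cells, stayed at or under 15.2 CPM in every library. Ctss departed from the other shared genes in colon, where KO replicate 2 was the second highest library: it stood at 423, 319 and 288 CPM in colon WT, 233, 352 and 268 CPM in colon KO, 189, 142 and 158 CPM in LPMC WT, and 242, 118 and 251 CPM in LPMC KO. Cd68, a lysosomal glycoprotein of macrophages, ran from 5.91 to 14.7 CPM in colon and from 8.66 to 26.9 CPM in LPMC.

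As sets, the monocyte and the mature macrophage genes each had their lowest mean of a tissue in its KO replicate 2. The mean log2 CPM of the 6 monocyte genes was 5.21, 5.34 and 4.04 in colon WT, 4.72, 3.13 and 4.96 in colon KO, 5.11, 4.46 and 4.70 in LPMC WT, and 5.48, 4.13 and 5.75 in LPMC KO. That of the 15 mature macrophage genes was 1.91, 2.04 and 1.55 in colon WT, 2.33, 0.60 and 2.79 in colon KO, 1.65, 1.26 and 1.00 in LPMC WT, and 2.33, 0.86 and 2.31 in LPMC KO. The gap between the means was 3.30, 3.30 and 2.498 in colon WT and 2.40, 2.53 and 2.17 in colon KO, and it was 3.46, 3.20 and 3.70 in LPMC WT and 3.15, 3.27 and 3.44 in LPMC KO. In colon KO replicate 2 the gap stayed within the range of the other colon libraries. Colon KO replicates 1 and 3 lay below colon WT replicates 1 and 2 for the monocyte genes and above them for the mature macrophage genes. These libraries were picked after the values were seen, and the full groups did not part in this way. Colon WT replicate 3 lay below colon KO replicates 1 and 3 for the monocyte genes, and colon KO replicate 2 was the lowest colon library for both sets. Genotypes overlapped in both tissues, and no p-value is given for such a score.

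**Figure D3:**
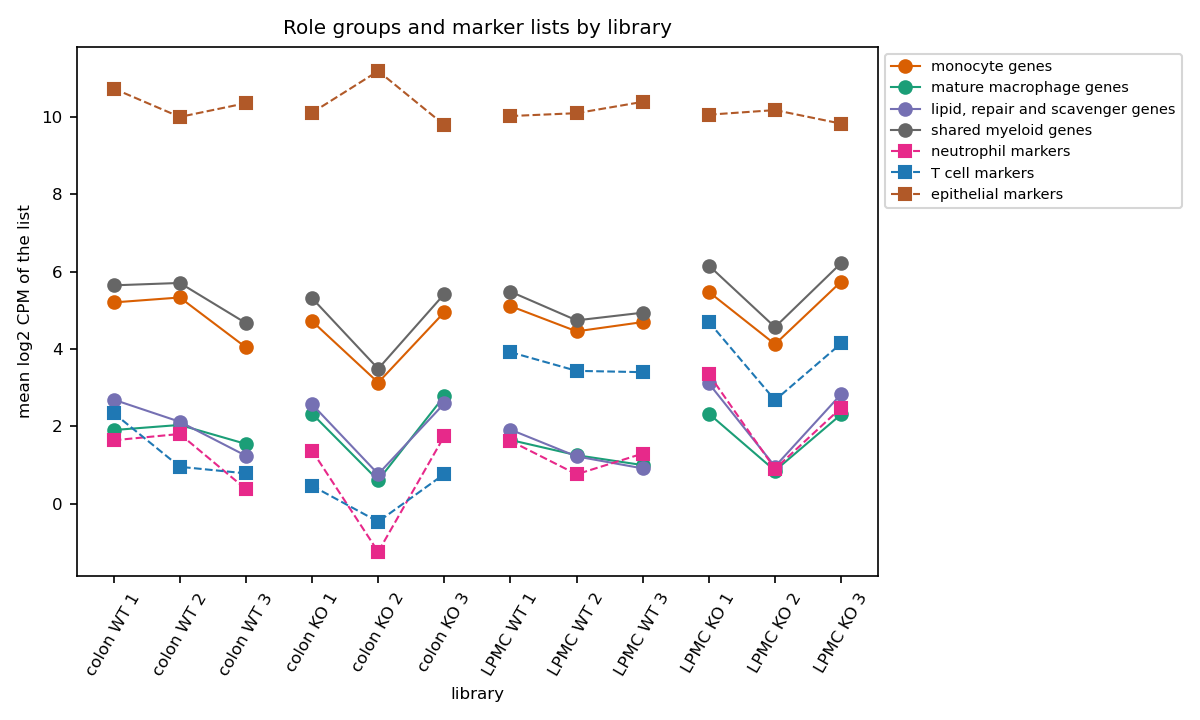
Mean log2 CPM of the 4 role groups (circles) and of neutrophil, T cell and epithelial markers (dashed lines, squares) in each library; lines join libraries of a group only to guide the eye. All 4 role groups dip in colon KO replicate 2 and LPMC KO replicate 2, as do the neutrophil and T cell markers, while epithelial markers peak in colon KO replicate 2.

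The comparison of KO with WT in full colon asks whether loss of Gpr15l goes with a different myeloid content of the inflamed colon. None of these genes passed the test. The lowest p-values belonged to Cd163, which had a mean of 2.21 ± 2.19 CPM (SD, n = 3) in KO and 0.665 ± 0.426 CPM in WT, and to Cd14, with 124 ± 24.4 CPM in KO and 156 ± 14.5 CPM in WT. The log2 fold changes were 1.72 (SE 0.82, edgeR adjusted p = 0.636) and -0.34 (SE 0.19, adjusted p = 0.662). Fcer1g followed with -1.07 (SE 0.64, adjusted p = 0.673) and Ly6c2 with -1.55 (SE 0.98, adjusted p = 0.682).

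By count, edgeR called 0 of 33 genes tested in colon, where it called 0.00518% of all 19303 genes, and DESeq2 also called 0. At an unadjusted p under 0.05 there were 0 by edgeR (7.79% of all genes) and 1 by DESeq2 (1770 of all 19303 genes). The genotypes overlapped for all 33, while 14.3% of all genes had groups that did not overlap. The log2 fold change was positive for 10 of 33 (50.5% of all genes), with a median of -0.20 against 0.01 for all genes. It was negative for all 6 monocyte genes (median -0.24) and all 6 shared myeloid genes (median -0.35), positive for 6 of 14 mature macrophage genes (median -0.17) and for 4 of 7 lipid, repair and scavenger genes (median 0.03). C1qa, C1qb and C1qc had -0.68 (SE 0.54), -0.28 (SE 0.51) and -0.53 (SE 0.52), and Apoe, Ctss and Spp1 -0.35 (SE 0.31), -0.29 (SE 0.24) and 0.73 (SE 0.48).

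These directions in colon depended on single libraries. Without colon KO replicate 2, the median over the genes was 0.18 in place of -0.20 and 23 of 33 were positive in place of 10. Of these, 0 were called and 4 had an unadjusted p under 0.05, a share no larger than the 14.6% of all 20114 genes. Without colon WT replicate 1 the median was -0.03 with 16 of 33 positive, and without colon WT replicate 2 it was -0.03 with 15 positive. Leaving out each remaining colon library gave medians from -0.50 to -0.42. The median of the monocyte genes was negative under each of these omissions (-0.57 to -0.08), and 3 of 6 were negative without colon KO replicate 2. Without that library the medians of the mature macrophage and shared genes turned positive, at 0.30 and 0.03. That of the lipid, repair and scavenger genes was then 0.56, against 0.03 with all libraries. C1qa, C1qb and C1qc then had -0.26 (SE 0.34), 0.14 (SE 0.27) and -0.10 (SE 0.29), and Apoe -0.11 (SE 0.25). Without colon KO replicate 3, Cd163 had 0.53 (SE 0.67) and Spp1 0.22 (SE 0.48), the lowest values over the omissions, whose highest were 2.39 and 1.01. In colon KO, 14 neutrophil markers passed the filter and had a median log2 fold change of -0.38, with 0 called by edgeR or DESeq2, 1 at an unadjusted p under 0.05 by each, and sums of 266 to 493 CPM against 589 to 939 CPM in WT. The 10 T cell markers had a median of -1.20, with 0 called by either, 5 at an unadjusted p under 0.05 by edgeR and 4 by DESeq2, and sums of 11 to 24.5 CPM against 20.5 to 60.8 CPM. Without colon KO replicate 2 these medians were 0.12 for the neutrophil and -0.92 for the T cell markers. Of the neutrophil sum in colon, Ly6g alone made up 247 to 338 CPM in KO and 426 to 583 CPM in WT. It was the only 1 of the 14 markers whose genotypes did not overlap in colon, so the gap between the sums rested largely on it. In LPMC it was 1.45 to 6.67 CPM. Dendritic cell markers summed to 6.46 to 28.6 CPM in colon KO and 18.1 to 41.9 CPM in colon WT. The part of these cells in the values of the shared genes was not tested.

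In LPMC, most of the genes had higher means in KO than in WT, and none passed the test. The smallest p-values belonged to Arg1, with 5.81 ± 1.40 CPM (SD, n = 3) in KO and 3.12 ± 0.455 CPM in WT, to Ms4a7, with 3.57 ± 0.728 CPM and 1.82 ± 0.352 CPM, and to Mrc1, with 6.56 ± 3.27 CPM and 2.51 ± 0.611 CPM. Their log2 fold changes were 0.89 (SE 0.25), 0.97 (SE 0.28) and 1.38 (SE 0.45), each with an edgeR adjusted p of 0.998. The Fc receptors Fcgr3 and Fcgr4 had 1.34 (SE 0.56) and 1.40 (SE 0.62). C1qa, C1qb and C1qc had 1.11 (SE 0.66), 1.08 (SE 0.66) and 1.21 (SE 0.63), Apoe had 1.11 (SE 0.64) and Lyz2 0.77 (SE 0.47). Plac8 had the other sign, with 414 ± 68.2 CPM in KO and 508 ± 38.8 CPM in WT, a log2 fold change of -0.30 (SE 0.15), and all KO libraries below all WT libraries.

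By count, edgeR called 0 of 31 genes tested in LPMC (0.0103% of all 19426 genes), and DESeq2 called 0. At an unadjusted p under 0.05 there were 3 by edgeR, namely Arg1, Ms4a7 and Mrc1, against 2.64% of all genes. By DESeq2 there were 8 at that p, against 661 of all 19426 genes. In 3 of the 31 the groups did not overlap, with KO above WT for Ms4a7 and Arg1 and below for Plac8, against 7.41% of all genes. The log2 fold change was positive for 27 of 31 (49.2% of all genes), with a median of 0.80 against -0.004 for all genes. It was positive for 4 of 6 monocyte genes (median 0.59), 11 of 13 mature macrophage genes (median 1.08), and all 6 tested genes of each of the other groups (medians 0.81 and 0.68).

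**Figure D4:**
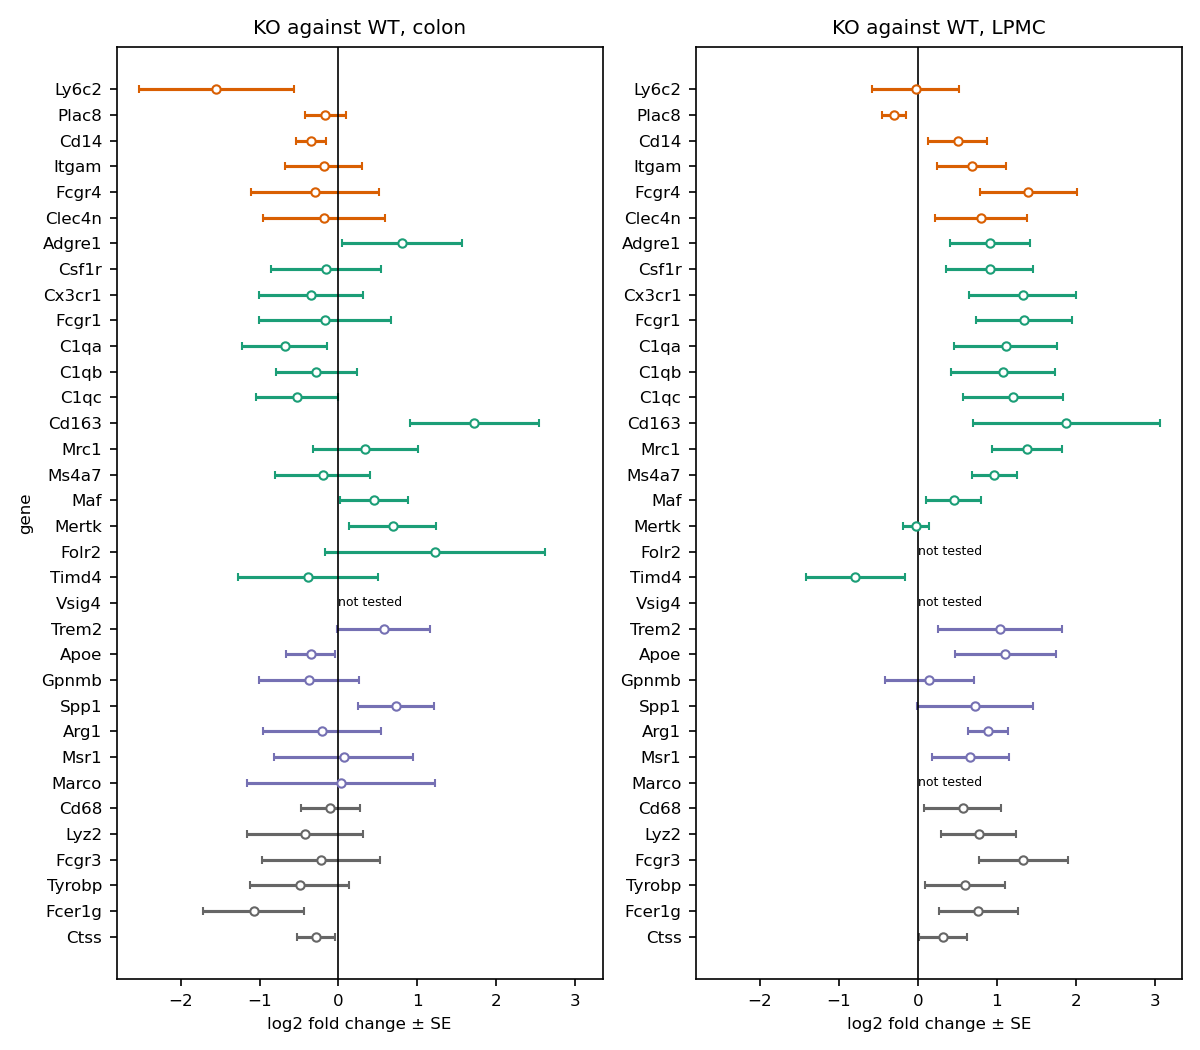
Log2 fold change of KO against WT with its standard error for each gene in colon (left) and LPMC (right), coloured by role group (orange monocyte, green mature macrophage, purple lipid, repair and scavenger, grey shared myeloid). In colon most points lie near or left of 0 with wide errors and in LPMC most lie right of 0, and no gene passed an adjusted p of 0.05 in either tissue.

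The LPMC values also depended on KO replicate 2. Without it, 27 of 32 genes had an unadjusted p under 0.05 (5.28% of all 20195 genes) and the median log2 fold change was 1.19, with 0 called and a lowest edgeR adjusted p of 0.322. Leaving out any other single LPMC library gave 3 or 4 genes at that unadjusted p. KO replicate 2 was named above for its low values of these same genes, so the 27 are no independent support for a KO effect. The medians were then 0.93 for monocyte, 1.51 for mature macrophage, 1.20 for lipid, repair and scavenger and 1.06 for shared genes, and C1qa, C1qb and C1qc had 1.55 (SE 0.45), 1.51 (SE 0.49) and 1.64 (SE 0.39). Without KO replicate 3 the median was 0.52, and leaving out each other LPMC library gave medians between these. The neutrophil markers moved with the same libraries: their median log2 fold change was 1.75, with 14 of 15 positive, 6 at an unadjusted p under 0.05 by edgeR (10 by DESeq2) and 0 called by either, and their sums were 718, 104 and 524 CPM in LPMC KO against 108 to 196 CPM in LPMC WT. The T cell markers had a median of 0.43 with 9 of 10 positive, and 0 were called or at an unadjusted p under 0.05 by edgeR or DESeq2. With that library left out, the median of the neutrophil markers was 2.20, with 10 of 15 at an unadjusted p under 0.05, and that of the T cell markers 0.82, with 7 of 10. The part of neutrophils in the values of Fcgr3, Fcgr4, Itgam, Clec4n, Fcer1g and Lyz2, which neutrophils also make, was not tested.

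Whether the KO effect differed between LPMC and colon was tested as an interaction. It was positive, the log2 fold change being the more positive in LPMC, for 27 of 33 genes (48.8% of all genes), with a median of 1.02. EdgeR called 0 of 33 (0.0% of all 20989 genes) and none had an unadjusted p under 0.05. DESeq2 called 0 and had 2 at an unadjusted p under 0.05, beside 1357 of all 20989 genes. The difference between tissues was therefore not shown for any of these genes. The lowest p belonged to Marco, at 4.58 (SE 2.09, edgeR adjusted p = 0.902) on the few LPMC counts given above, and other values were 1.82 (SE 0.90) for Fcer1g, 1.78 (SE 0.93) for C1qa and 1.71 (SE 0.90) for C1qc. Leaving out the KO libraries numbered 2 in both tissues, an alternative added after the data were seen, gave a median of 0.96 with 9 of 33 genes at an unadjusted p under 0.05 (9.21% of all 21683 genes) and 0 called.

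LPMC against full colon, over both genotypes, was the comparison in which some of these genes passed the test. Ly6c2 was higher in LPMC, with a log2 fold change of 2.60 (SE 0.65, edgeR adjusted p = 0.00712), as were Spp1 with 2.15 (SE 0.47, adjusted p = 0.0033), Maf with 1.69 (SE 0.29, adjusted p = 0.000793) and Cd14 with 0.56 (SE 0.21, adjusted p = 0.0462). Lower in LPMC were Plac8 at -2.27 (SE 0.15, adjusted p = 1.98e-06), Ctss at -0.78 (SE 0.20, adjusted p = 0.00693) and Mrc1 at -1.30 (SE 0.44, adjusted p = 0.0304). Marco was also lower, at -4.71 (SE 1.09, adjusted p = 0.00456) and Folr2 at -3.92 (SE 1.22, adjusted p = 0.0201), on the few LPMC counts given above. Tyrobp at 1.16 (SE 0.45, adjusted p = 0.0517), Csf1r at 1.23 (SE 0.50, adjusted p = 0.0612) and C1qa at -1.02 (SE 0.47, adjusted p = 0.0933) missed the threshold, as did C1qc at -0.92 (SE 0.45) and C1qb at -0.73 (SE 0.46).

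By count, 9 of 33 genes were called, against 50.3% of all genes, 4 of them higher in LPMC (25.4% of all genes) and 5 lower (24.9%). With all 12 libraries, the share of these genes called was thus below that of all genes. The log2 fold change was positive for 17 of 33 (50.4% of all genes), with a median of 0.01. By role, 2 monocyte genes were called higher (Ly6c2 and Cd14) and 1 lower (Plac8). Of the mature macrophage genes 1 was called higher (Maf) and 2 lower (Mrc1 and Folr2), with 9 of 14 negative and a median of -0.66. Of the lipid, repair and scavenger genes 1 was higher (Spp1) and 1 lower (Marco), and of the shared genes 1 was lower (Ctss). Tissues did not overlap for Ly6c2, Maf and Plac8. The share of all genes without such overlap is not given here, so this is not read as particular to these genes. Without the KO libraries numbered 2, 16 of 33 were called, 7 higher and 9 lower. Of all 21683 genes, 4940 were then called higher and 4928 lower, so the share of these genes was no longer below that of all genes.

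**Figure D5:**
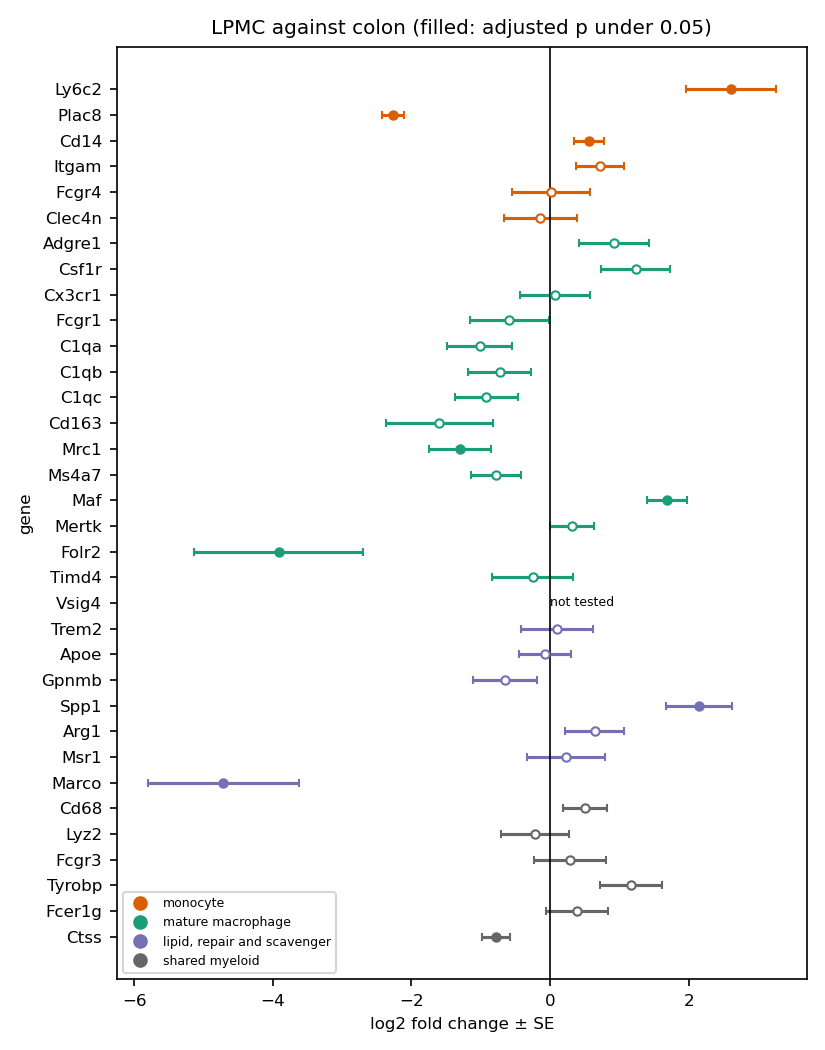
Log2 fold change of LPMC against colon with its standard error for each gene, over both genotypes; filled points passed an adjusted p of 0.05 and colours mark the role groups. Ly6c2, Spp1, Maf and Cd14 are filled on the right, Plac8, Mrc1, Folr2, Marco and Ctss on the left, and every role group has points on both sides of 0.

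Some calls rested on single libraries. The Cd14 call was lost when any library other than colon KO replicate 3, LPMC WT replicate 3 or LPMC KO replicate 2 was left out (0.46 to 0.73 on the log2 scale over all 12 omissions). The Mrc1 call was lost on leaving out LPMC KO replicate 1, LPMC KO replicate 2, LPMC WT replicate 2, LPMC WT replicate 3, colon WT replicate 2 or colon KO replicate 3 (-1.54 to -0.96 over the omissions). The Folr2 call was lost on leaving out colon WT replicate 3, colon KO replicate 3 or LPMC KO replicate 1 (-4.81 to -3.24). With the WT libraries alone, 10 genes were called, of which 6 were shared with the 9: Cd14, Folr2 and Ly6c2 (1.84 on the log2 scale) were lost, and C1qa (-1.92), C1qb (-1.42), C1qc (-1.79) and Ms4a7 were gained. In WT mice alone the C1q chains were thus lower in LPMC than in colon. Of all 19297 genes tested with the WT libraries alone, 3228 were called higher in LPMC and 3165 lower. Other cell types differed between the tissues as well. All 10 T cell markers, all 7 fibroblast markers and all 10 dissociation genes were called higher in LPMC, as were 6 of 8 endothelial and 5 of 10 dendritic cell markers, while 5 of 10 epithelial markers were called lower and 0 higher. Of 15 neutrophil markers tested, 4 were called higher and 2 lower. Their part in the values of genes such as Maf, Spp1 and Plac8 was not tested.

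Further genes of the same biology were read from 4 lists, each counted whole. EdgeR called 0 of their genes for KO against WT in either tissue and 0 for the interaction, and DESeq2 called only Lpl, in colon (adjusted p = 0.0387). For all 4 lists, the edgeR counts of KO against WT with all libraries stand beside these shares of all genes. Positive were 50.5% in colon and 49.2% in LPMC, and at an unadjusted p under 0.05 were 7.79% and 2.64%. Among 16 further monocyte genes, 6 were positive in colon (3 at an unadjusted p under 0.05) and 15 in LPMC (0 at that p). Fn1, which encodes fibronectin, had the lowest p in colon (1.20, SE 0.40), and Ifitm6, an interferon-induced membrane protein, in LPMC (1.37, SE 0.57). All 7 fibroblast markers were also positive in colon, with a median of 0.667 and 0 called by edgeR. The part of fibroblasts in the Fn1 value was not tested. Ccr2, the chemokine receptor by which monocytes leave the marrow, had means of 7.62 CPM in WT and 9.91 CPM in KO colon and of 15.6 CPM in WT and 27.0 CPM in KO LPMC, with 0.36 (SE 0.85) in colon and 0.79 (SE 0.36) in LPMC on the log2 scale. Among 31 tested of 34 further macrophage genes, 18 were positive in each tissue, with 2 at an unadjusted p under 0.05 in each. Lpl, which encodes lipoprotein lipase, led in colon (1.05, SE 0.26, KO libraries all above WT), and Lgals3, the galectin that epithelium also makes, in LPMC (-0.42, SE 0.11, KO libraries all below WT). Groups did not overlap for 2 of the 31 in each tissue, against 14.3% of all genes in colon and 7.41% in LPMC.

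The 14 growth factors, receptors and transcription factors had 3 positive in colon (2 at an unadjusted p under 0.05) and 12 in LPMC (1). Csf2, the growth factor GM-CSF, had -1.93 (SE 0.67) in colon at means of 0.0858 CPM in KO and 0.329 CPM in WT, and the transcription factor Runx1 had 0.41 (SE 0.15) in LPMC. The macrophage growth factor Csf1 had -0.24 (SE 0.52) in colon and -0.23 (SE 0.32) in LPMC, and Spi1, the gene of PU.1, -1.01 (SE 0.70) and 0.59 (SE 0.55). Cebpb, a factor of inflammatory monocytes, had the lowest p of this list for the interaction, at 1.55 (SE 0.49, edgeR adjusted p = 0.902). The 17 genes of the ITAM signalling list include the inhibitory receptor Fcgr2b. Of these genes, 16 were negative in colon and 17 positive in LPMC, with 1 and 0 at an unadjusted p under 0.05 by edgeR. The lowest p-values were those of the kinase Btk in colon (-2.501, SE 1.05), which B cells also carry, and of the receptor Clec5a in LPMC (1.07, SE 0.56). Btk stood at 27.0, 1.93 and 2.16 CPM in colon WT and 2.23, 1.26 and 2.11 CPM in colon KO, so 1 WT library was high. That library, colon WT replicate 1, also held the B cell gene Cd79a at 171 CPM, where the rest of the colon libraries ran from 0.465 to 3.34 CPM. Without it Btk had -0.14 (SE 0.41), and the part of B cells in its value was not tested.

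The KO libraries numbered 2 bore on these lists too. Without that of colon, 7 of 16 monocyte, 19 of 33 macrophage, 5 of 14 growth factor and regulator and 4 of 17 ITAM genes were positive in colon, with 5, 9, 3 and 0 at an unadjusted p under 0.05. Without that of LPMC, 14 of 16, 22 of 31, 11 of 14 and 17 of 17 were positive there, with 7, 10, 6 and 15 at that p. EdgeR called 0 of them in each case. Of all genes, 14.6% were at that p without the colon library and 5.28% without the LPMC library. The LPMC library left out was named above for its low values of monocyte and macrophage genes. The LPMC counts without it are therefore no independent support for a KO effect.

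Between tissues some genes of each list were called, beside 25.4% of all genes higher in LPMC and 24.9% lower. Of the further monocyte genes 8 of 16 were called higher in LPMC and 0 lower, led by Nr4a1 at 6.56 (SE 0.31), a factor of patrolling monocytes that is also an immediate early gene, Thbs1 at 5.36 (SE 0.30) and Spn at 3.32 (SE 0.40). Of the further macrophage genes 7 of 31 were higher and 5 lower, with Il10, the anti-inflammatory cytokine, at 5.84 (SE 0.44), Lpl at 2.34 (SE 0.27) and Cd9, a tetraspanin, at -0.80 (SE 0.11). Of the growth factors and regulators 8 of 14 were higher, among them Csf2 at 3.75 (SE 0.41), Zeb2 at 2.69 (SE 0.47) and Runx1 at 0.86 (SE 0.13), and 1 was lower, the Csf1r ligand Il34 at -1.21 (SE 0.27). Of the ITAM signalling genes 5 of 17 were higher and 0 lower, led by the receptors Clec4e at 3.61 (SE 0.72), Trem1 at 3.27 (SE 0.70) and Clec7a at 2.65 (SE 0.57). The macrophage and ITAM counts were near or below those shares. The 10 dissociation genes stood beside these with a median of 4.32, and their part in the Nr4a1, Thbs1 and Il10 values was not tested.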

How the data were processed

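RNA of 12 libraries (4 groups of 3) was sequenced from stranded poly(A) libraries, per the labels' protocols. STAR and GRCm38 (mm10) are named in the submitters' processing notes; the counter, annotation and strand setting were not given in the sources used here. Whole-number counts of reads per Ensembl gene were deposited by the authors with no normalization. Of 54109 identifiers, 54042 matched GENCODE M21. Values of 2 (24184 entries) outnumber values of 1 (8495 entries), so counting error may be larger than the counts imply. Without a known strand setting, overlapping genes cannot be told apart.

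Counts were tested in R 4.3.3 with edgeR 4.0.16 (TMM, filterByExpr with a minimum count of 10, robust quasi-likelihood F-test), within each tissue for KO against WT and on all 12 libraries for the interaction and for LPMC against colon. The standard error is the size of the log2 fold change divided by the square root of F. DESeq2 1.42.0, other scaling, no filter, the replicate block, WT libraries only and leaving out libraries were alternatives. CPM per kb uses the summed exon length.

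The genes and lists were chosen with earlier results of these data known. The rule gave values in every library for genes called for KO against WT, the 2 of lowest p per role group and tissue, the 2 largest changes per role group between tissues and the C1q chains, and up to 3 genes per further list and comparison by lowest p; Csf1r, Ccr2, Csf1, Spi1, Il34 and other genes outside it were chosen after their values were seen. Replicates of a group differed beyond sampling noise, so none were merged.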

Additional observations from a re-analysis of the deposited data

How the results depend on the processing

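Counts of genes called for KO against WT stayed at 0 in colon, in LPMC and for the interaction under every alternative run, leaving out each library included. For LPMC against colon, 9 genes were called, 14 with DESeq2, 16 without the KO libraries numbered 2 (added after the data were seen) and 7 to 11 when a single library was left out. DESeq2 kept all 9 and added C1qa, Cd163, Csf1r, Ms4a7 and Tyrobp. Of all 20989 genes, DESeq2 called 5654 higher in LPMC and 5889 lower. Cd14 was lost with RLE scaling (0.54 on the log2 scale), with no filter (0.56) and without most single libraries. The median of the shared myeloid genes for LPMC against colon was 0.34, and -0.52 with WT libraries only. The log2 fold change of C1qb in colon was -0.28 and ran from -0.65 to 0.14 when a library was left out, turning positive without colon KO replicate 2. The causes were not tested.

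Same-numbered WT and KO libraries did not deviate together throughout (correlations of deviations from group means of 0.075, -0.196 and -0.2 in colon, 0.321, -0.085 and -0.375 in LPMC), so the number was not treated as a pairing of WT with KO. These values cannot tell whether colon and LPMC libraries of a genotype are paired, and the main fits did not pair them. Within a genotype, colon and LPMC libraries of equal number had 0.178, 0.137 and 0.247 in WT and 0.09, 0.409 and 0.293 in KO, all above 0.1 but that of KO replicate 1. With a replicate block within genotype, added after the data were seen, 0 genes were called for the interaction (13 of 33 at an unadjusted p under 0.05, and 1115 of all 20989 genes) and 16 for LPMC against colon, Folr2 being lost and Adgre1, C1qa, C1qb, C1qc, Cd68, Csf1r, Itgam and Tyrobp gained. With that block, 5518 of all 20989 genes were called higher in LPMC and 4946 lower. The labels do not say whether equal numbers mark the same animal. With the number as a replicate block across genotypes, 0 genes were called in colon, LPMC and the interaction and 8 for LPMC against colon, Cd14 being lost. Depth limits Vsig4, Folr2, Marco and Cd163, which have few counts, and 3 libraries a group limit every comparison of genotypes.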

Other observations

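Tyrobp and Fcer1g, adaptors that work side by side, did not keep a fixed proportion. The ratio of their CPM was 0.618 to 1.09 in colon and 1.00 to 1.78 in LPMC, a measure chosen after the values were seen. In colon the C1qa to C1qb ratio was 1.22, 1.19 and 0.969 in WT and 0.96, 0.864 and 0.799 in KO. The WT libraries were thus above the KO libraries, though WT replicate 3 and KO replicate 1 nearly met. Of all single genes, 14.3% had colon groups that did not overlap. In LPMC the ratio was 0.789 to 0.856 in WT and 0.794 to 0.861 in KO. Neither ratio was tested.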
